A study of Mus musculus with 10 samples.

Results

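The nuclear genes named Nduf encode subunits of mitochondrial complex I and, under the names Ndufaf, proteins that assemble it. Members were taken as every gene of the deposited count table whose symbol begins with Nduf, without the 3 of the 54 such genes whose symbol marks a pseudogene (-ps). This left 51 of the 56748 genes of the table, of which 47 had enough counts to be tested. The 47 tested members were 37 nuclear complex I subunits, 8 Ndufaf assembly factors, and Ndufa4 and Ndufa4l2, which keep the Nduf name but are assigned to complex IV. Ndufa11b, Ndufb4c and Ndufs6b, processed pseudogenes in GENCODE M21, had 0 to 9 counts per library, and Ndufb11b had 0 counts in every library, so these 4 members were not tested.

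Complex I, the NADH:ubiquinone oxidoreductase, is the entry point for electrons from NADH into the respiratory chain of the mitochondrial inner membrane. Its matrix arm carries NADH oxidation and electron transfer along iron-sulfur clusters to ubiquinone, its membrane arm pumps protons, and its core subunits are encoded partly in the nucleus and partly in mitochondrial DNA. Accessory subunits surround and stabilize the core, assembly factors build the complex and then leave it, and in adipocytes respiratory capacity serves lipid synthesis in white cells and heat production in brown and beige cells.

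RNA-seq was performed on cultures of primary adipocytes, differentiated for 6 to 8 days from the stromal vascular fraction (SVF) of inguinal fat of male mice 6 to 8 weeks old. FAM20C is a protein kinase of the secretory pathway, and the comparison asks which transcripts differ when its gene is deleted in adipocytes. The 5 control cultures were Fam20c-flox, and the 5 KO cultures were Fam20c-flox/Adipoq-Cre, so both groups carried the floxed allele and shared their backcross generation, at least 5 to C57BL/6J. Cre under the adiponectin promoter acts in cells that have become adipocytes, so precursors and other cells that persist in an SVF culture keep an intact gene, and the controls carried no Cre. Whether each library came from a separate animal is not given in the sources used here, so that p-values measure the spread between these cultures.

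Total counts ran from 18949106 to 26237825 per library. Levels are given as CPM, counts scaled to library size with TMM factors, group means carry the SD of their 5 libraries, and fold changes are KO against control on the log2 scale with their standard error (SE). On the leading principal component of all tested genes, which held 23.5% of the variance, Control 4 and KO 1 had scores of 21.7 and 24.2, whereas the other controls lay between -14.8 and -11.5 and the other KO libraries between -4.12 and 8.59. The next component held 20.5% of the variance, and every control lay above every KO library on it, at 3.37 to 19.3 against -18.7 to 3.32. Control 5 and KO 4 had 2.09% and 1.92% of their counts on mitochondrially encoded genes, against 3.84% to 5.09% in the rest. Each of these pairs of libraries that stood apart held a control and a KO library.

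Fam20c (chromosome 5, 138754514 to 138810077, GRCm38) had 8.86, 10.3, 11.9, 9.09 and 11.2 CPM in controls 1 to 5 and 6.65, 7.29, 7.11, 7.70 and 7.74 CPM in KO cultures 1 to 5. Every KO culture lay below every control culture (2-sided exact permutation test, p = 0.00794). The log2 fold change was -0.49 (SE 0.093, adjusted p = 0.0137, Benjamini-Hochberg adjustment of edgeR's quasi-likelihood test). Because reads were counted per gene, the floxed exons cannot be read apart from the rest of the transcript, and cells without Cre keep all of it.

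Across the subunits, the KO cultures held slightly more transcript than the controls, by a median of 5.89%. From these values came a log2 fold change of above 0 for 37 of 37 nuclear subunits (36 with library totals as the only scaling, where Ndufb2 was -0.0034), with a median of 0.082 and a range of 0.019 to 0.18, against 49.7% of the 14270 genes tested and a median of -0.00085. Ndufb2, the lowest of the 37, was also below 0 without Control 1 (-0.0081) and without KO 5 (-0.0069). For the Ndufaf assembly factors, 7 of 8 were above 0 with a median of 0.076. The subunits were measured in the same libraries, so their directions are not independent of each other. In these bulk cultures, fewer cells of a type and less RNA per cell cannot be told apart.

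At an adjusted p limit of 0.05, 1 of the 47 members was called higher in KO cultures and 0 were called lower, against 0.308% and 1.86% of all genes tested (44 higher and 265 lower, edgeR). DESeq2 and limma voom each called 0 members lower, against 2.52% and 2.43% of all genes, and 0 were lower at an unadjusted p under 0.05, against 7.46%. At an unadjusted p under 0.05, 13 of the 37 subunits (35.1%) and 1 of the 8 Ndufaf genes were higher, against 4.43% of all genes. Every KO library lay above every control library for 7 of the 37 subunits (18.9%) and for 0 of the 8 Ndufaf genes, against 1.31% of all genes. The median SE was 0.041 for subunits, 0.063 for Ndufaf genes and 0.084 over all genes, so that small differences were resolved better for subunits. DESeq2's Wald test called 4 members higher (Ndufa6, Ndufa12, Ndufs1 and Ndufs4), against 0.876% of all genes, and limma voom called 2 (Ndufa6 and Ndufa12), against 0.778%. The number of all genes called higher depended on single libraries: it was 19 without Control 5, 23 without Control 1, KO 2 or KO 5, 24 without Control 3 or KO 4, 29 without KO 3 and 119 without Control 4, and the number called lower was 164 without KO 2 and 171 without KO 5.

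**Figure D1:**
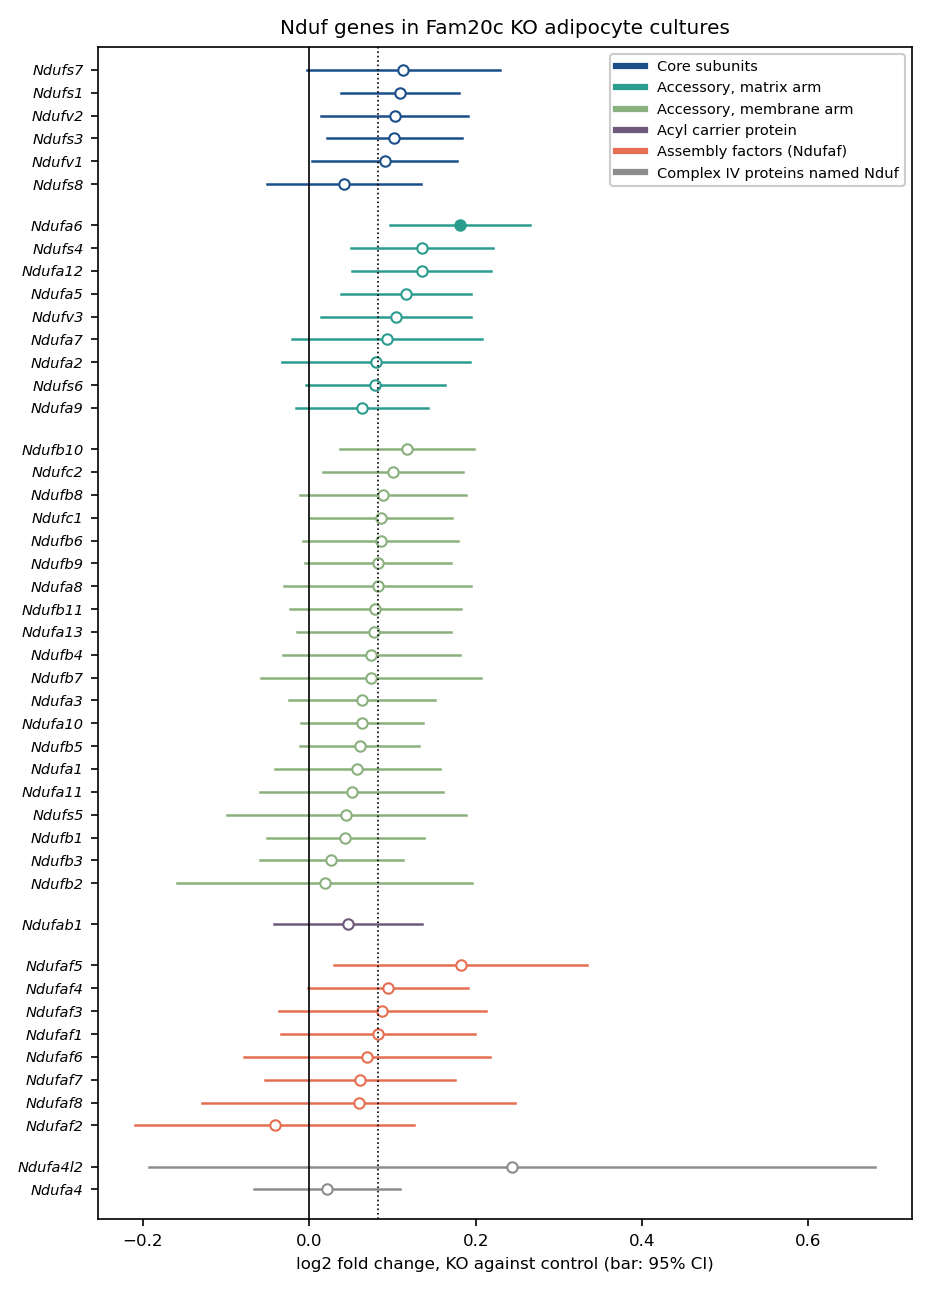
Log2 fold change of tested Nduf genes, KO against control (x axis), with 95% confidence intervals as bars, grouped by role; the solid line is 0, the dotted line is the subunit median of 0.082, and the filled point marks the only gene past the adjusted limit, Ndufa6. Ndufaf2 lies below 0, and with library totals as the only scaling Ndufb2 and Ndufa4 do too.

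The 7 nuclear core subunits carry the cofactors of the matrix arm, and all 7 estimates were above 0 with a median log2 fold change of 0.10. None passed the adjusted limit with edgeR, 5 had an unadjusted p under 0.05, and DESeq2 called Ndufs1 alone among them. Ndufs1, which holds iron-sulfur clusters on the path from NADH, had 431, 429, 419, 439.7 and 425 CPM in controls 1 to 5 and 453, 476, 461, 467 and 455 CPM in KO cultures 1 to 5. The groups did not overlap, with Control 4 the highest control and KO 1 the lowest KO culture. The log2 fold change was 0.11 (SE 0.033, adjusted p = 0.143, Benjamini-Hochberg adjustment of edgeR's quasi-likelihood test).

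Ndufv1, the subunit that binds NADH and FMN, had 409.6, 424, 429, 439 and 458 CPM in controls and 476, 437, 466, 454 and 466 CPM in KO cultures. Control 1 was lowest, Control 5 lay above KO 2 and KO 4, and Control 4 lay above KO 2. Its log2 fold change was 0.091 (SE 0.040). Ndufv2, its iron-sulfur partner, had 235, 246, 250.2, 251 and 254 CPM in controls and 255, 256, 259, 281 and 275 CPM in KO cultures. Here the groups did not overlap, although Control 5 and KO 1 differed by little, and KO 4 and KO 5 stood highest. edgeR put its log2 fold change at 0.10 (SE 0.041).

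Closer to the ubiquinone site, Ndufs3 had 210.0, 207, 219, 217 and 224 CPM in controls and 237, 223, 224, 238 and 234 CPM in KO cultures, a log2 fold change of 0.10 (SE 0.037). The groups overlapped only through Control 5, which lay just above KO 2. Ndufs7, which carries the last iron-sulfur cluster before ubiquinone, had 101, 111, 112, 112 and 112 CPM in controls and 126, 110.4, 121, 108 and 126 CPM in KO cultures. Control 1 was far below the other controls, and KO 2 and KO 4 lay between, while the other KO cultures exceeded all controls, and the SE was 0.054 around a log2 fold change of 0.11. Ndufs8 had the smallest core estimate, 0.042 (SE 0.043, 95% interval -0.051 to 0.13), from 0.025 without Control 1 to 0.069 without KO 2, and its groups overlapped widely. It lies near Ndufv1 on chromosome 19, at 3908863 to 3912774 against 4007384 to 4012806 (GRCm38).

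The 9 tested accessory subunits of the matrix arm included the member called higher. Ndufa6, a LYR-motif protein that docks the acyl carrier protein on the matrix arm (chromosome 15, 82350140 to 82354322, minus strand), had 151, 166, 164, 169.9 and 162 CPM in controls 1 to 5 and 187, 185, 185, 177 and 188 CPM in KO cultures 1 to 5. Every KO culture exceeded every control, with KO 4 below the other KO cultures and Control 1 below the other controls. The means were 162 ± 6.95 and 184 ± 4.42 CPM (SD, n = 5), an increase of 13.4%. The log2 fold change was 0.18 (SE 0.039, 95% interval 0.096 to 0.27, adjusted p = 0.0293, Benjamini-Hochberg adjustment of edgeR's quasi-likelihood test).

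The call of Ndufa6 was close to the limit while its estimate moved little. Its log2 fold change stayed between 0.16 and 0.20 over all alternatives tried. Among the 10 fits on 9 libraries it passed in 2, without Control 4 (0.0178) and without KO 4 (0.0366, both adjusted p, Benjamini-Hochberg adjustment of edgeR's quasi-likelihood test). In the other 8 fits, without Control 1, 2, 3 or 5 and without KO 1, 2, 3 or 5, the adjusted p was 0.0740, 0.0536, 0.0668, 0.0857, 0.0581, 0.0755, 0.0726 and 0.0857 in that order (Benjamini-Hochberg adjustment of edgeR's quasi-likelihood test). It also missed the limit with library totals as the only scaling (0.0647) and without a filter on low counts (0.0719, both adjusted p by Benjamini-Hochberg adjustment of edgeR's quasi-likelihood test). Without Control 4 and KO 1 together the adjusted p was 0.0261 (Benjamini-Hochberg adjustment of edgeR's quasi-likelihood test).

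Ndufa12, a matrix-arm subunit related to the assembly factor Ndufaf2, had 113, 116, 118, 120.3 and 112 CPM in controls and 124, 129, 121, 132 and 129.7 CPM in KO cultures. All KO cultures were above all controls, and Control 4 and KO 3 came closest. Its log2 fold change was 0.13 (SE 0.038, adjusted p = 0.115, Benjamini-Hochberg adjustment of edgeR's quasi-likelihood test). Ndufs4, which is incorporated late and whose loss in mice impairs complex I, had 141, 146, 143, 153 and 155 CPM in controls and 160.5, 160.4, 163, 170.4 and 158 CPM in KO cultures. Its groups did not overlap either, and KO 4 was the highest library. On the log2 scale the difference was 0.14 (SE 0.039, adjusted p = 0.123, Benjamini-Hochberg adjustment of edgeR's quasi-likelihood test). Ndufa5, near the ubiquinone-binding part, had 92.1, 93.6, 93.1, 97.0 and 99.3 CPM in controls and 102, 104, 103, 106 and 100.1 CPM in KO cultures. The groups did not overlap, although KO 5 was just above Control 5. Its log2 fold change was 0.12 (SE 0.036). The other matrix-arm members Ndufv3, Ndufa7, Ndufa2, Ndufs6 and Ndufa9 had log2 fold changes of 0.063 to 0.10, with overlapping groups. The median over the 9 was 0.10.

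Of the accessory subunits of the membrane arm, 20 were tested, and 20 of 20 estimates were above 0 (19 with library totals as the only scaling, Ndufb2 excepted), with a median log2 fold change of 0.074. None passed the adjusted limit with edgeR, DESeq2 or limma voom, and 3 had an unadjusted p under 0.05 (Ndufb10, Ndufc2 and Ndufc1, named after their values were seen). Ndufb10, a subunit with disulfide-forming cysteines, had 199, 211, 213, 210.1 and 209.9 CPM in controls and 235, 218, 225, 219.6 and 233 CPM in KO cultures, and was the only membrane-arm gene whose groups did not overlap. Control 1 was the lowest control, and Control 3 and KO 2 came closest. The log2 fold change was 0.12 (SE 0.037, adjusted p = 0.171, Benjamini-Hochberg adjustment of edgeR's quasi-likelihood test).

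Among subunits, Ndufa1 had the highest level per length, and it had 131, 144, 136, 132 and 143 CPM in controls and 141, 149, 152, 137 and 135 CPM in KO cultures. The groups overlapped, with Control 2 and Control 5 above 3 of the KO cultures, and the log2 fold change was 0.058 (SE 0.046), or 0.036 without KO 3. Ndufb6 had 163, 169, 179, 171 and 177 CPM in controls and 174, 173, 185, 192 and 188 CPM in KO cultures, a log2 fold change of 0.086 (SE 0.043). KO 3, KO 4 and KO 5 exceeded all controls, and KO 1 and KO 2 lay among them. Ndufb2 had only 5.77, 6.67, 6.58, 6.33 and 5.96 CPM in controls and 5.90, 6.59, 6.63, 5.82 and 6.82 CPM in KO cultures, on 110 to 178 counts per library. The groups overlapped throughout, and the 95% interval of its log2 fold change ran from -0.16 to 0.20. Ndufb3, chosen after its values were seen as the membrane-arm gene next to Ndufb2 in size of difference, had a log2 fold change of 0.026 (SE 0.040), and no KO culture exceeded all controls. Ndufa1 and Ndufb11 lie on the X chromosome, and their log2 fold changes were 0.058 and 0.079. Ndufab1, the mitochondrial acyl carrier protein present in both arms, had a log2 fold change of 0.047 (SE 0.041), and KO 1 was its lowest library.

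Ndufa4 and Ndufa4l2 differed from each other in spread. Ndufa4, a protein of complex IV, had 274, 272, 288, 282 and 294 CPM in controls and 278, 274, 285, 306 and 288 CPM in KO cultures. KO 4 was the highest library and the other KO cultures lay within the control range, and the log2 fold change of 0.021 (SE 0.041) turned to -0.00036 with library totals only and to -0.0039 without KO 4. Ndufa4l2, its paralog induced by hypoxia, had 76.6, 80.9, 76.2, 152 and 92.8 CPM in controls and 162, 107, 95.4, 89.9 and 112 CPM in KO cultures. Control 4 and KO 1, the libraries that stood apart on the leading component, were its highest in each group. This gave a log2 fold change of 0.24 with an SE of 0.20, the largest SE among the 47 members, and the 95% interval was -0.19 to 0.68. It depended on those libraries, at 0.47 without Control 4, 0.083 without KO 1 and 0.31 without both.

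The 8 Ndufaf assembly factors gave estimates of similar size to the subunits with wider intervals. None was called by edgeR, DESeq2 or limma voom, and 1 (Ndufaf5) had an unadjusted p under 0.05. Ndufaf5, which hydroxylates an arginine of Ndufs7, had 12.9, 12.6, 15.8, 13.8 and 14.5 CPM in controls and 17.01, 15.6, 15.7, 15.7 and 15.0 CPM in KO cultures. Control 3 lay above 4 of the 5 KO cultures, the other controls lay below all of them, and KO 1 was the highest library. On the log2 scale its difference was 0.18 (SE 0.070, adjusted p = 0.293, Benjamini-Hochberg adjustment of edgeR's quasi-likelihood test). Ndufaf8, which stabilizes Ndufaf5, had 7.87, 9.75, 8.32, 7.98 and 8.03 CPM in controls and 7.79, 9.13, 9.21, 8.15 and 9.52 CPM in KO cultures. Control 2 was the highest library and KO 1 the lowest, and the log2 fold change was 0.059 (SE 0.087), from 0.029 without KO 5 to 0.12 without Control 2.

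Ndufaf3 and Ndufaf4 act together on the ubiquinone-binding module. Ndufaf4 had 53.8, 55.9, 52.4, 52.0 and 54.1 CPM in controls and 54.3, 55.9, 62.3, 57.8 and 56.1 CPM in KO cultures, a log2 fold change of 0.095 (SE 0.045). KO 1 lay within the control range, KO 2 was level with Control 2, and KO 3 stood highest. Ndufaf3 had 19.1, 22.7, 20.6, 19.6 and 21.3 CPM in controls and 21.5, 22.3, 22.5, 20.8 and 22.7 CPM in KO cultures, a log2 fold change of 0.088 (SE 0.057). Control 2 reached the top of the KO range, and the other controls overlapped its lower end or lay below it. Ndufaf7, a methyltransferase, had 32.4, 32.4, 32.4, 29.3 and 35.2 CPM in controls and 35.3, 33.2, 34.7, 33.1 and 32.4 CPM in KO cultures, a log2 fold change of 0.061 (SE 0.053), from 0.030 without Control 4 to 0.094 without Control 5, and 0.013 without Control 4 and KO 1 together. Control 4 was low and Control 5 was close to the highest KO culture.

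Ndufaf1, a chaperone of the membrane arm, had 38.8, 42.1, 44.9, 41.4 and 46.0 CPM in controls and 45.3, 47.6, 41.9, 45.3 and 45.8 CPM in KO cultures, a log2 fold change of 0.083 (SE 0.054), or 0.051 without Control 1. Control 1 was lowest, and 4 of the 5 KO cultures lay within the control range. Ndufaf6 had 6.87, 6.86, 7.24, 6.62 and 7.27 CPM in controls and 7.74, 7.03, 7.38, 7.24 and 7.23 CPM in KO cultures, on 131 to 183 counts per library, a log2 fold change of 0.069 (SE 0.068). Ndufaf2, a late-acting factor whose place Ndufa12 takes, had the lowest estimate, -0.041 (SE 0.077, 95% interval -0.21 to 0.13), from -0.096 without Control 2 to -0.0023 without KO 1, and -0.00029 without Control 4 and KO 1 together. It had 14.9, 12.5, 15.8, 14.8 and 15.4 CPM in controls and 12.8, 13.8, 14.4, 14.7 and 15.7 CPM in KO cultures, and Control 2, the lowest library, lay below all KO cultures. The gene B230220B15Rik on the opposite strand overlaps 65.7% of its exon bases, and reads of the library kits used do not mark strand. How reads in shared bases were counted is not known, so the Ndufaf2 counts can include reads of that gene or lack reads from the shared bases.

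Set side by side, subunits and assembly factors differed between the groups by similar proportions. The summed level of the 37 subunits was 6441, 6681, 6799, 6699 and 6925 CPM in controls 1 to 5 and 7109.8, 6961, 7175, 7171 and 7187 CPM in KO cultures 1 to 5. All KO cultures were above all controls, with Control 1 lowest, and Control 5 and KO 2 closest. The group means were 6709 ± 179 and 7121 ± 94.3 CPM (SD, n = 5), a difference of 6.14%. The 8 Ndufaf genes summed to 187, 195, 197, 185 and 202 CPM in controls and 202, 205, 208, 203 and 205 CPM in KO cultures. Control 5 was level with KO 1, and the other controls were below all KO cultures. The means were 193 ± 7.03 and 204 ± 2.38 CPM (SD, n = 5), a difference of 5.72%.

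As a share of the subunit sum, the Ndufaf sum was 2.90, 2.92, 2.90, 2.77 and 2.91% in controls 1 to 5 and 2.84, 2.94, 2.90, 2.83 and 2.85% in KO cultures 1 to 5. The groups overlapped, with Control 4 lowest and KO 2 highest, and the means were 2.88% ± 0.0628 and 2.87% ± 0.0474 (SD, n = 5). The difference between the subunit median and the Ndufaf median log2 fold change was 0.0065 (-0.014 without Control 2, -0.00081 without Control 5, -0.0032 without KO 1, -0.0051 without KO 4, and up to 0.022 without KO 2), below the SD between libraries of 0.040 for the mean Ndufaf log2 CPM. No test over either list was made, because the lists were chosen with results known. Over the 47 members, Control 1 was the lowest library for 26 and KO 4 the highest for 15.

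**Figure D2:**
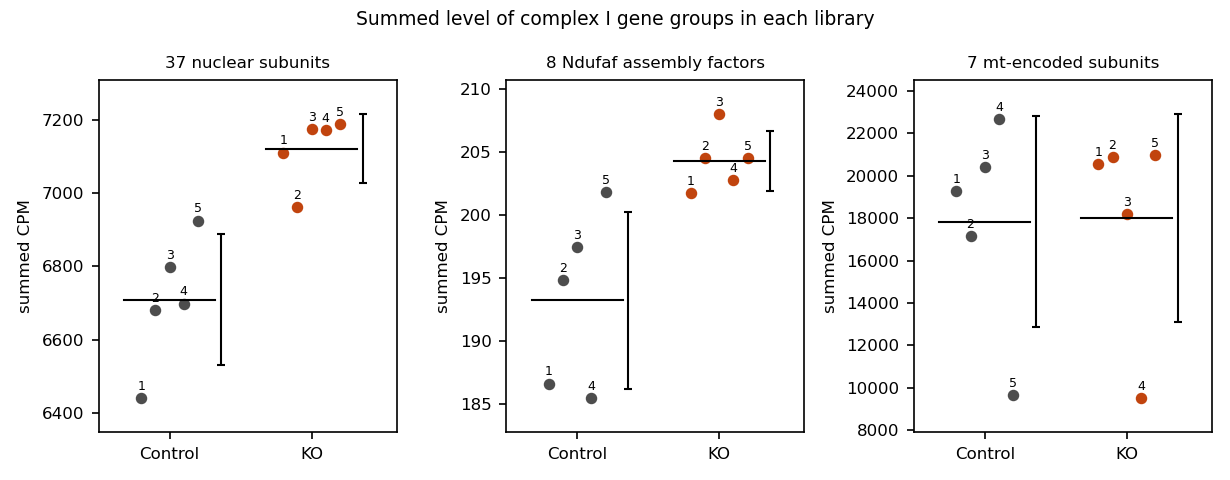
Summed CPM (y axis, not starting at 0) of the nuclear subunits, the Ndufaf assembly factors and the mitochondrially encoded subunits in each of the 5 control and 5 KO libraries, with replicate numbers above the points, the group mean as a line and the SD as a bar. The subunit sums run from 6441 to 6925 in controls and 6961 to 7187 in KO cultures without overlap, Control 5 and KO 1 meet for the Ndufaf genes, and Control 5 and KO 4 are low for the mitochondrially encoded genes.

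Levels per length separated the roles more than any difference between groups. In controls, the median level was 99.6 CPM per kilobase of exon for the 37 subunits and 9.64 CPM per kilobase for the 8 Ndufaf genes. On the length of the longest coding transcript, available for 36 subunits, the medians were 166.2 and 12.9 CPM per kilobase. The subunit Ndufa1 had 327 and Ndufb6 had 261 CPM per kilobase of exon, and Ndufaf1 (28.4 CPM per kilobase of exon) was the highest of the 8 Ndufaf genes. Ndufb2, at 1.11 CPM per kilobase of exon, was below every Ndufaf gene although its product is a structural subunit. Other annotated genes share 7.94% of the exon bases of Ndufb2, among them Gm42420 on the same strand. How reads in shared exons were counted is not known, so this level may be too low, which was not tested. The annotation behind the deposited counts is later than GENCODE M21, from which lengths were taken, so the exons counted for a gene may differ from those measured here. In M21, Ndufb1 is named Ndufb1-ps and listed as a noncoding transcript of a bidirectional promoter. It was kept because the deposited table names it Ndufb1, and it had 119 CPM in controls.

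Other genes of complex I were examined as fixed lists. The 7 mitochondrially encoded subunits, which form the proton-pumping core of the membrane arm, summed to 19266, 17142, 20413, 22668 and 9669.7 CPM in controls and 20541, 20882, 18179, 9506 and 20977 CPM in KO cultures. Control 5 and KO 4 had the lowest sums, near each other, and the other libraries of both groups overlapped. The median log2 fold change was 0.0013, with 4 of 7 above 0, 0 called by edgeR and 0 at an unadjusted p under 0.05, and SEs ran from 0.20 to 0.45, each above the highest subunit estimate of 0.18. In the 2 libraries with low mitochondrial sums, the nuclear subunit sums were 6925 and 7171 CPM, the highest control sum and a sum within the range of the other KO cultures.

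Assembly factors that do not carry the Nduf name had 11 members tested, of which 8 were above 0, with a median log2 fold change of 0.041 and none called by edgeR. At an unadjusted p under 0.05, 2 of the 11 were higher, against 4.43% of all genes. These were Foxred1 (0.11, SE 0.034) and Aifm1 (0.075, SE 0.032), named after their values were seen. They were also the 2 in which every KO library lay above every control library, against 1.31% of all genes. Transcription factors and coactivators of nuclear respiratory genes had 12 members tested, of which 11 were above 0, with a median of 0.085. None was called by edgeR, and 2 (Pparg and Gabpa) were higher at an unadjusted p under 0.05, against 4.43% of all genes. Ppargc1a, the coactivator PGC-1α, had 38.3, 37.05, 29.2, 43.4 and 35.4 CPM in controls and 37.01, 45.6, 37.5, 43.2 and 45.8 CPM in KO cultures, with wide overlap, and a log2 fold change of 0.19 (SE 0.097, adjusted p = 0.484, Benjamini-Hochberg adjustment of edgeR's quasi-likelihood test). That fold change was 0.12 without Control 3, 0.26 without Control 4 and 0.30 without Control 4 and KO 1 together (SE 0.087, adjusted p = 0.0968, Benjamini-Hochberg adjustment of edgeR's quasi-likelihood test). The DNA-binding factors Gabpa, Nrf1 and Esrra had log2 fold changes of 0.10 (SE 0.045), 0.069 (SE 0.050) and 0.056 (SE 0.043), the last 0.036 without KO 3 and 0.037 without KO 5. The lowest adjusted p in these regulators was that of Pparg, 0.218 (Benjamini-Hochberg adjustment of edgeR's quasi-likelihood test).

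Markers of cell types in the cultures were compared between the genotypes as well, and called genes were most frequent among the endothelial markers. The 16 adipocyte markers, led by Fabp4, summed to 47499, 47306, 45941, 46182 and 47087 CPM in controls and 48606, 50229.7, 50172, 48216 and 48026 CPM in KO cultures. All KO sums were above all control sums, a difference of 4.80%, while 11 of the 16 genes were above 0. None was called by edgeR, and 4 were higher at an unadjusted p under 0.05, against 4.43% of all genes. Without Fabp4, left out after its values were seen, the other 15 markers summed to 25197 to 26942 CPM in controls and 25618 to 27134 CPM in KO cultures, which overlapped, a difference of 1.92%. Of 9 tested brown or beige markers, led by Elovl3, 7 were above 0 and 1, Ucp1, was called higher, against 0.308% of all genes. Their sums were 768, 788, 739, 743 and 773 CPM in controls and 782, 825, 869, 845 and 845 CPM in KO cultures, where only KO 1 fell within the control range. Without Elovl3, left out in the same way, they were 291 to 372 CPM in controls and 373 to 407 CPM in KO cultures.

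Ucp1, the uncoupling protein of brown and beige fat, had 11.4, 12.0, 13.5, 25.0 and 17.5 CPM in controls and 28.6, 27.0, 24.0, 32.0 and 33.9 CPM in KO cultures. Control 4 lay above KO 3 and the other controls below all KO cultures. The log2 fold change was 0.87 (SE 0.19, adjusted p = 0.0284, Benjamini-Hochberg adjustment of edgeR's quasi-likelihood test), and it missed the limit without Control 1, 2, 3 or 5 and without KO 2, 4 or 5, at adjusted p from 0.0575 to 0.0856 (Benjamini-Hochberg adjustment of edgeR's quasi-likelihood test). Without Control 4 its log2 fold change was 1.10.

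Endothelial markers were lower in KO cultures, with 17 of 20 called lower, against 1.86% of all genes. All 20 were below 0, and their median log2 fold change was -1.23. They summed to 230.2, 243, 274, 274 and 271 CPM in controls and 149.6, 119.6, 126, 107 and 116 CPM in KO cultures, without overlap, and Cdh5 was the most abundant. The defining markers Cdh5 and Pecam1 had means of 22.1 ± 3.67 and 18.0 ± 4.06 CPM in KO cultures (SD, n = 5), and Esm1 had the lowest log2 fold change, -1.84 (SE 0.24). The 17 called lower were Cdh5, Cldn5, Egfl7, Emcn, Eng, Erg, Esam, Esm1, Flt4, Kdr, Mmrn2, Pecam1, Plvap, Robo4, Sox17, Sox18 and Tie1, of which Sox17 missed the limit without Control 1, 2, 3 or 5 and without KO 2, 4 or 5 (adjusted p 0.0508 to 0.105, Benjamini-Hochberg adjustment of edgeR's quasi-likelihood test).

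Of the 14 fibroblast and progenitor markers, led by Col3a1, 12 were below 0 and 5 were called lower (Cd34, Lum, Col3a1, Col1a1 and Pdgfra), against 1.86% of all genes. Their sums were 5797, 5241, 6746, 5639 and 6293 CPM in controls and 4972, 4427, 4462, 5232 and 4619.9 CPM in KO cultures, without overlap, although Control 2 was only just above KO 4. Without Col3a1 the other 13 summed to 3015 to 3527 CPM in controls and 2582 to 3088 CPM in KO cultures, which overlapped, a difference of -14.1%. The call of Col3a1 was lost without Control 5, KO 2 or KO 5 (adjusted p 0.0547 to 0.0651, Benjamini-Hochberg adjustment of edgeR's quasi-likelihood test). Col1a1 missed the limit in each fit on 9 libraries except those without Control 2 or KO 1 (adjusted p 0.0557 to 0.138), and on all 10 with RLE factors (adjusted p 0.0508, Benjamini-Hochberg adjustment of edgeR's quasi-likelihood test). The 14 macrophage markers, led by Lyz2, had 8 below 0 and 1 called lower (Cd163), against 1.86% of all genes. Their sums overlapped, from 1519.5 to 2321 CPM in controls and 1331 to 2196 CPM in KO cultures. No marker of these lists that was tested had 0 counts in any library. The part of the cells these markers stand for in the subunit levels was not tested.

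**Figure D3:**
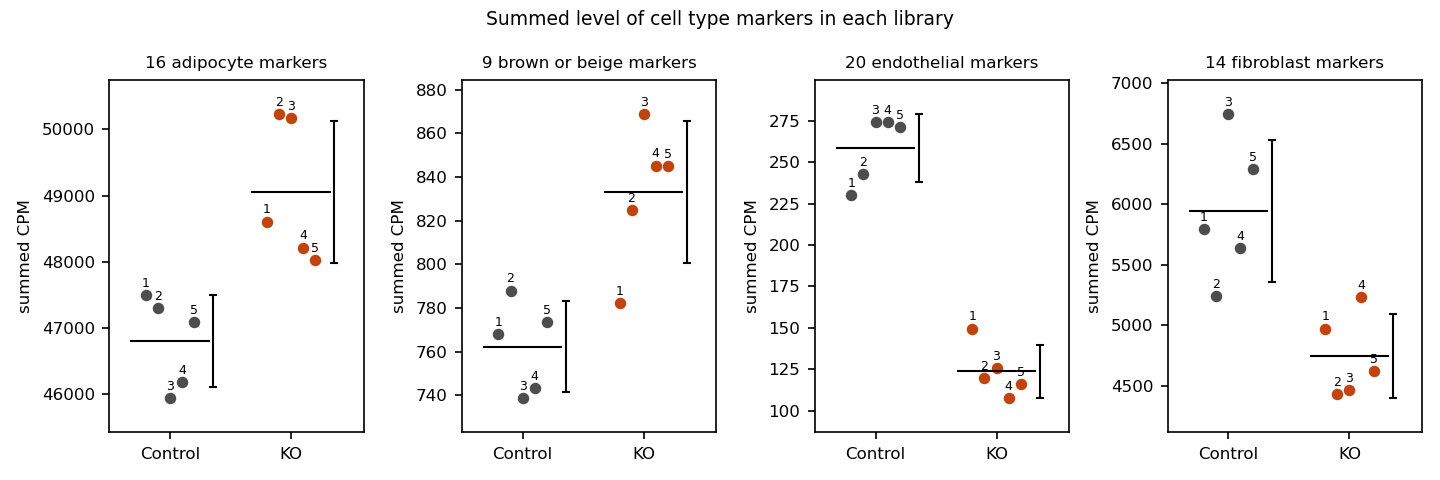
Summed CPM (y axes, not starting at 0) of adipocyte, brown or beige, endothelial and fibroblast or progenitor markers in each control and KO library, with replicate numbers, group means as lines and SDs as bars. Endothelial sums are 230.2 to 274 CPM in controls and 107 to 149.6 CPM in KO cultures, and adipocyte sums are 45941 to 47499 and 48026 to 50229.7 CPM.

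The 47 members lie on 18 chromosomes, with 6 on chromosome 17. Exons of 20 members overlap another annotated gene, and 3 of these overlaps are on the same strand (Ndufb2, Ndufb8 and Ndufb9), with genes that had 0 counts in every library. Those 0 counts do not show that the overlaps were without effect, because reads in shared exons may have been counted for neither gene. Over the 20 subunits with no exonic overlap, 20 were above 0 with a median log2 fold change of 0.092. For Ndufb6 and Ndufa13, genes on the opposite strand cover 39.0% and 29.98% of the exon bases. Counts of Ndufb6 and Ndufa13 can include reads of those genes or lack reads from the shared bases.

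Promoter sequences from RefSeq (GRCm38.p6, 250 bases before to 50 after the start) matched 41 of the 51 members, and 4 short motifs were searched on both strands. The NRF1 motif GCGCATGC, which nearly reads the same on both strands so that its matches can overlap, occurred in 5 of the 41 genes (12.2%) against 2.71% of 32851 promoters. The YY1 motif AAGATGGCG occurred in 6 genes (14.6%) against 1.40% of promoters, the GABPA motif CCGGAAGT in 1 (2.44%, Ndufs3) against 3.89%, and the estrogen-related receptor half-site AAGGTCA in 3 (7.32%; Ndufb2, Ndufb4 and Ndufs5) against 4.72%. The 5 genes with the NRF1 letters had log2 fold changes of 0.051 to 0.18, and the 6 with the YY1 letters 0.059 to 0.14. Member shares are per gene, and the 41 genes had 43 windows, whereas the shares of all promoters are per promoter, so the units differ. A match describes the letters of the window and not binding.

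The NRF1 windows are shown because they include Ndufa6, the gene called higher, and Ndufaf5, the assembly factor with the largest difference. Each line gives 30 bases of the gene's strand with the motif, or its reverse complement, in capitals.
Ndufa6, chr15:82354356-82354385, minus strand: tccgcggtagaGCATGCGCattgcagagcc
Ndufa8, chr2:36049328-36049357, minus strand: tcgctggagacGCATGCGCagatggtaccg
Ndufa11, chr17:56717691-56717720, plus strand: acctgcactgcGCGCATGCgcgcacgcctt
Ndufaf4, chr4:24897959-24897988, plus strand: cccagatgtctGCGCATGCgcctgtgcgga
Ndufaf5, chr2:140170651-140170680, plus strand: tagtcccgttgGCGCATGCgcctaatagaa
In the windows shown, the capitals of Ndufa6 begin 83 bases before the RefSeq start, in Ndufa8 8, in Ndufa11 60 and in Ndufaf4 113 bases before it, and in Ndufaf5 16 bases after it.

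The YY1 windows are shown because the motif had the same strand and nearly the same place in each gene. It lay on the gene's strand in 6 of 6 genes and began 10 to 35 bases after the start.
Ndufs7, chr10:80249463-80249492, plus strand: ggccgaggccAAGATGGCGgcgctggcggg
Ndufs4, chr13:114388045-114388074, minus strand: gcgtttgcctacaggAAGATGGCGgcggtc
Ndufs6, chr13:73328433-73328462, minus strand: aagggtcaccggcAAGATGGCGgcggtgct
Ndufa9, chr6:126849096-126849125, minus strand: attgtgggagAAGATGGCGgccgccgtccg
Ndufc1, chr3:51408914-51408943, minus strand: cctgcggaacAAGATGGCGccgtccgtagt
Ndufaf8, chr11:120098934-120098963, plus strand: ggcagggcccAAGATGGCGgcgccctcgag
In 5 of these 6 genes, Ndufaf8 excepted, the capitals overlap an annotated start codon in GENCODE M21, so the same letters also begin the coding sequence.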

How the data were processed

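RNA-seq counts per gene were used as deposited by the authors, who aligned reads to GRCm38.p6 with STAR 2.6.0c and counted them with featureCounts 1.6.2. Counting was against an Ensembl annotation whose release number could not be read from the methods, and no strand setting was found there. Differences between KO and control were tested with edgeR 4.0.16 in R 4.3.3, with TMM factors, a minimum count of 10 in filterByExpr, the quasi-likelihood test and an adjusted p limit of 0.05 over the 14270 genes tested. The procedure was tested on simulated data. Alternatives were DESeq2 1.42.0, limma 3.58.1 (voom with quality weights), RLE and upper-quartile factors, library totals, no filter, a minimum count of 50, a replicate block, each library left out, and Control 4 and KO 1 both left out; marker sums without their most abundant gene were added after the data were seen. Genes named by rule were those past the limit, the core subunits, the Ndufaf genes, Ndufa4 and Ndufa4l2, the 5 lowest p, the 3 lowest and 3 highest fold changes and levels per kilobase among Nduf genes, Fam20c, Ppargc1a, Esrra, Nrf1, Gabpa, and genes of the other lists past the limit. Not every gene the rule takes is described or plotted. Other genes were named after their values were seen, and the members and lists were chosen with earlier results of these data known. Gene positions and lengths came from GENCODE M21, which holds 52073 of the 56748 genes of the table.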

Additional observations from a re-analysis of the deposited data

Results flagged for a closer look

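In 8 of the 116 groups of 5 libraries examined, 1 library lay apart from the other 4 by more than 0.71 of the group's range, where chance gives about 5% of groups, or 5.8. Ndufa6 was 176.598 CPM in KO 4, below the 185 to 188 CPM of the other KO libraries. Ndufs7 was 100.899 CPM in Control 1, below the 111 to 112 CPM of the other controls. Ndufaf8 was 9.74889 CPM in Control 2, above the 7.87 to 8.32 CPM of the other controls. Ndufa4l2 was 151.635 CPM in Control 4, above the 76.2 to 92.8 CPM of the other controls. Gabpa was 69.0853 CPM in Control 3, below the 74.5 to 76.5 CPM of the other controls. Lum was 30.3657 CPM in Control 4, below the 41.6 to 45.8 CPM of the other controls. The summed level of the accessory subunits of the matrix arm was 1330.36 CPM in Control 1, below the 1398 to 1425 CPM of the other controls, and 1464.2 CPM in KO 2, below the 1503 to 1517 CPM of the other KO libraries.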

How the results depend on the processing

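The median log2 fold change of the subunits was above 0 under every alternative tried, at 0.061 to 0.087 over the other settings and 0.065 to 0.10 when each library was left out, and 36 or 37 of the 37 subunits were above 0. The number of genes called higher depended on the test and the libraries. Of all genes, 125 were higher with DESeq2, 111 with limma voom, 21 with a replicate block and 145 without Control 4 and KO 1 together, and 19 to 119 with each library left out. Of Nduf genes, 4 were higher with DESeq2 and 2 with limma voom, 0 with library totals only, 0 without the filter on low counts, 0 with a replicate block, and 0 to 1 with each library left out. With each library left out, 164 to 323 genes were lower. The cause was not tested. Replicate numbers did not pair the libraries: the correlation of same-numbered control and KO libraries, after removing group means, ran from -0.251 to 0.263, and only Control 3 correlated best with the KO library of its own number. With the replicate block the adjusted p was 0.127 for Ndufa6 and 0.0993 for Col1a1 (edgeR). The levels per kilobase were higher on the longest coding transcript (166.2 for subunits and 12.9 for Ndufaf genes) than on all exons, because that length is shorter. Ndufb2 and Ndufaf6 rest on 110 to 183 counts per library, which limits the precision of their estimates.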
